A study of Oryctolagus cuniculus with 16 samples.

Results

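The genes ARG1, XDH and NCF1, which encode enzymes or a subunit of an enzyme that consume arginine or make oxidants, were followed on rabbit vein graft arrays. Their probes were found through the transcript accession that the array files give for each spot, which was looked up in a rabbit gene table. This gave 11 of the 43603 probes, namely 4 probes of ARG1 (transcript NM_001082108), 6 probes of XDH (NM_001122938) and 1 probe of NCF1 (NM_001082102). All 11 passed the filter on dim probes, which kept 35762 probes whose spots stood well above background throughout at least 1 group. The 3 genes were picked from earlier results of the same arrays for their difference between day 7 and sham surgery, so values of that comparison are given as a description, with no p-value.

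ARG1 is arginase, which splits arginine into ornithine and urea. It is abundant in liver and is also induced in macrophages, where it competes for arginine with nitric oxide synthases. XDH is xanthine dehydrogenase, also known as xanthine oxidase, which carries out the last steps of purine breakdown to uric acid and can pass electrons to oxygen. NCF1 is the cytosolic organizer subunit of the phagocyte NADPH oxidase, an enzyme that neutrophils and macrophages use to make superoxide and that is assembled at the membrane from several subunits. The arrays measure transcripts, and protein and enzyme activity are not part of these data.

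The arrays held Cy3-labelled RNA of vein tissue from male rabbits. Grafts had been taken out 1 day after the operation (6 arrays) or 7 days after it (6 arrays), and a sham surgery group (4 arrays) served as control. Strain, age and graft site are not in the labels, and nothing there ties an array to an animal, so that p-values measure only the spread between these samples, which may be technical. Arrays of a group that differed by no more than the spread between spots of the same probe were averaged, which left 2 day 1 samples (3 arrays each), 2 day 7 samples (3 arrays each) and 3 sham samples (arrays 3 and 4 together). The 4 sham arrays were on a scan of their own and the 12 graft arrays on 3 other scans, so that surgery and scan cannot be told apart. Each graft scan held arrays of both days, with day 1 at positions 1 and 2 and day 7 at positions 3 and 4. Day and position therefore cannot be told apart either, and the 2 samples of a graft group also differed in position. The upper quartile of the raw intensities was 863 to 1023 units on day 1 arrays, 2488 to 2831 units on day 7 arrays and 1329 to 2026 units on sham arrays. Levels below are quantile-normalized log2 signals unless stated otherwise, and the number of arrays limits their precision. In whole tissue, fewer cells of a type and less RNA per cell cannot be told apart.

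Vein tissue was checked by its markers. Of 13 smooth muscle markers 5 had a named probe, and ACTA2, smooth muscle actin, lay between 17.89 and 18.50 on the sham arrays. Of 12 endothelial markers only KDR, a growth factor receptor, had a named probe, which was well above background on all 4 sham arrays (4.24 to 4.95) and on none of the graft arrays.

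ARG1 was low in the sham group, higher on day 1 and higher again on day 7. Its brightest probe, A_04_P000178, had a log2 signal of 5.39, 4.85, 8.26 and 8.36 on sham arrays 1 to 4. On the 6 day 1 arrays the lowest, median and highest signals were 12.24, 12.27 and 12.31, and on the 6 day 7 arrays they were 16.73, 16.77 and 16.79. The 3 groups did not overlap, but the share of all genes whose groups separate so was not counted, and arrays of a sample are close repeats. The gap between the highest sham array and the lowest day 1 array was 3.87 on the log2 scale, and the gap between the highest day 1 array and the lowest day 7 array was 4.42. In scanner units before normalization, the probe read 23.5 to 322 in the sham group, 2907 to 3312 on day 1 and 262200 to 306700 on day 7, with no saturated spot.

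In the model of all 19328 genes, ARG1 averaged 6.18 ± 1.86 (SD, n = 3 samples) in the sham group, 12.27 ± 0.04 (n = 2) on day 1 and 16.77 ± 0.02 (n = 2) on day 7. The difference between day 7 and sham was 10.58 on the log2 scale (SE 0.97), or 1536-fold, which ranked 2 from the top of all genes. Day 1 exceeded sham by 6.09 (SE 0.97), or 67.9-fold, with an adjusted p of 0.00149 in the limma model. After normexp background correction this difference was 4.46 (adjusted p 6.81e-04). Day 7 exceeded day 1 by 4.50 (SE 1.06), or 22.6-fold, with an adjusted p of 0.0104. The first of these tests shares the sham arrays, and the second the day 7 arrays, with the comparison that chose the gene. ARG1 ranked 85 from the top in day 1 against sham. A differentially expressed gene (DEG) had to differ by 1 or more on the log2 scale, in either direction, with an adjusted p under 0.05. Genes higher by this rule made up 28.8% of the genes tested in day 1 against sham, 19.5% in day 7 against day 1 and 17.7% in day 7 against sham, and genes lower by it made up 21.9%, 22.7% and 13.7%. With arrays scaled by their 75th percentile in place of quantile normalization, the share of higher genes among DEGs went from 56.8% to 69.8% in day 1 against sham and from 46.2% to 27.6% in day 7 against day 1.

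**Figure D1:**
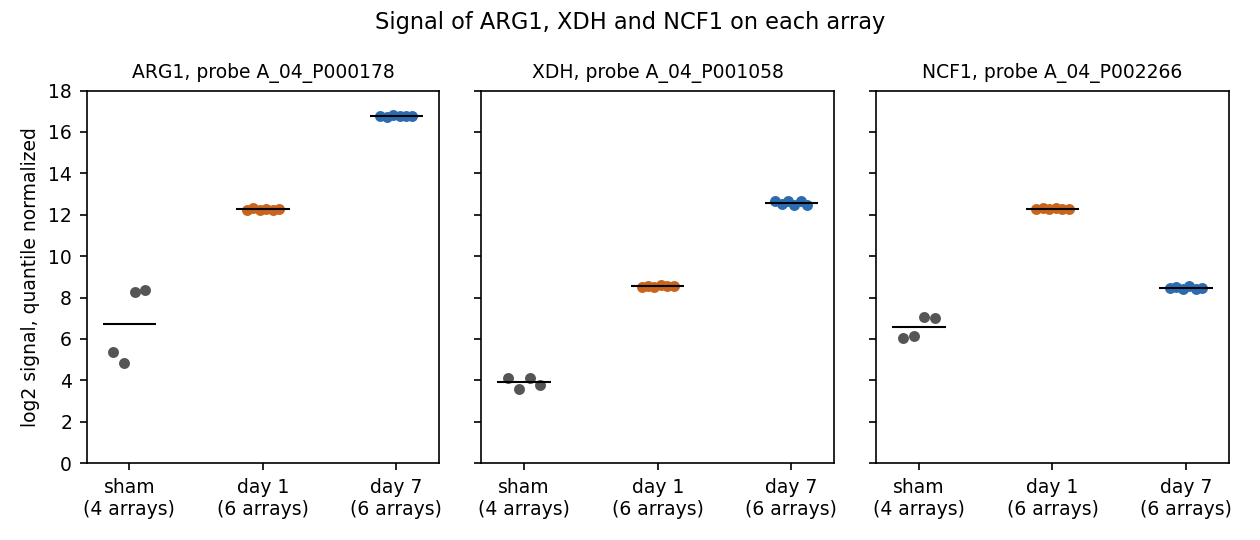
Normalized log2 signal (y axis) of the brightest probe of ARG1 and XDH and of the NCF1 probe on each array of the 3 groups (x axis). Each point is an array and each bar the mean over the arrays of a group. ARG1 and XDH were highest on day 7, NCF1 on day 1, and the sham arrays of ARG1 fell into a lower pair (4.85 and 5.39) and a higher pair (8.26 and 8.36).

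The other ARG1 probes followed the same course. Over the 4 probes, day 1 exceeded sham by 5.70 to 6.46 on the log2 scale and day 7 exceeded day 1 by 3.24 to 4.50. All 4 were DEGs in both comparisons when tested probe by probe, against 25.2% of probes higher in day 1 against sham and 21.3% higher in day 7 against day 1. The second call was less firm. Of 20 alternatives, which include samples left out, A_04_P000176 kept it in 14, A_04_P000177 and A_04_P000179 in 16 and A_04_P000178 in 17. The difference between day 7 and sham ranged from 9.34 to 10.58. The step from day 1 to day 7 was largest for A_04_P000178 and smallest for A_04_P000176, whose spots on day 7 arrays 2 and 4 had been called outlying and were left out, so that 1 of its day 7 samples rests on array 6 alone. Pearson's r between the probes was 0.996 to 0.999 over the 7 samples, which share groups and scans. Within each of the 3 scans of graft arrays, the step from day 1 to day 7 was 4.47, 4.52 and 4.51 for A_04_P000178. Each of these scans held an array of every graft sample. Values by scan therefore repeat the same samples at the same positions and do not measure the spread between samples.

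**Figure D2:**
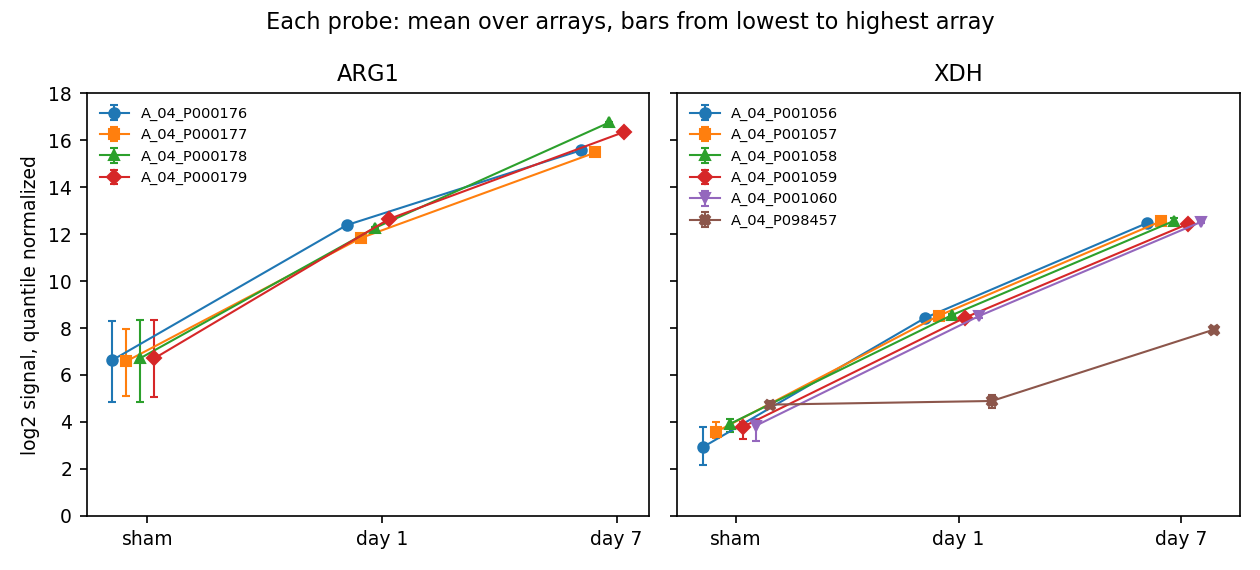
Normalized log2 signal (y axis) of each probe of ARG1 (left) and XDH (right) in the 3 groups (x axis). Points are means over the arrays of a group, and bars run from the lowest to the highest array. The 4 ARG1 probes rose together, with a wide range in the sham group, whereas the XDH probe A_04_P098457 stayed near 5 on day 1 when the other 5 XDH probes lay above 8.

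The sham arrays disagreed about ARG1 more than about most genes. For A_04_P000178, sham arrays 3 and 4 exceeded arrays 1 and 2 by 3.19 on the log2 scale, or 9.12-fold. For the 4 probes this difference was 2.64 to 3.27, or 6.24-fold to 9.64-fold, while arrays 1 and 2 differed by 0.54 at most and arrays 3 and 4 by 0.15 at most. The SD over the 4 sham arrays was 1.53 to 1.89, which exceeded the SD of 98.7% to 99.2% of 35658 probes, whose median was 0.22. Every ARG1 probe was well above background on all 4 sham arrays. The height of the ARG1 difference therefore depended on which sham arrays it was taken from. Against sham arrays 1 and 2, the probe A_04_P000178 was higher by 7.15 on day 1 and by 11.65 on day 7, and against arrays 3 and 4 it was higher by 3.96 and by 8.46. The adjusted p of day 1 against sham was 2.13e-06 without sham arrays 3 and 4 and at most 0.0126 under the other settings and omissions that were tried. The test of day 7 against day 1 borrows the sham spread through the common model. In a model of the graft samples alone its adjusted p was 4.75e-05, whereas it was 0.0529 and 0.0506 in the common model when either day 7 sample was left out.

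Other genes of arginine, nitric oxide and polyamine metabolism moved in different directions. Of 30 genes of a list that was drawn up with earlier results known, 7 had a named probe and 6 were tested. Apart from ARG1, 1 of 5 rose and 2 fell in day 7 against sham (17.7% and 13.7% of all genes). The median difference of these 5 was -0.42, against 0.04 over all genes. In day 1 against sham none of the 5 rose and 2 fell (28.8% and 21.9% of all genes). Their median there was -0.15 (all genes 0.26). In day 7 against day 1, 2 rose and 2 fell (19.5% and 22.7% of all genes). Their median there was -0.27 (all genes -0.16).

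ARG2, the mitochondrial arginase encoded by a separate gene, differed by less than the fold threshold in every comparison. Its arrays ranged from 6.99 to 7.15 in the sham group, from 6.86 to 7.02 on day 1 and from 6.61 to 6.67 on day 7. The day 7 mean of ARG2 lay 0.42 below the sham mean on the log2 scale (SE 0.10, adjusted p 0.0149 in the limma model). NOS3, the endothelial nitric oxide synthase, fell in both steps. It went from 8.74 to 9.06 on the sham arrays to 7.51 to 7.63 on day 1 and 5.84 to 6.01 on day 7. NOS3 fell by 1.34 (SE 0.12, adjusted p 1.05e-04) from sham to day 1 and fell by 1.65 (SE 0.13, adjusted p 1.18e-04) from day 1 to day 7. After normexp background correction these differences were -0.85 and -0.84, short of the fold threshold. GCH1 is the first enzyme in the synthesis of the nitric oxide synthase cofactor tetrahydrobiopterin. GCH1 was at 9.63 on day 1 and 9.20 in the sham group and fell to 7.09 on day 7 (-2.11 from sham, SE 0.15). SLC3A2, the heavy chain that several amino acid transporters share, was at 9.13 to 9.30 on the sham arrays, 9.26 to 9.44 on day 1 and 12.39 to 12.49 on day 7. It rose by 3.10 (SE 0.12, adjusted p 1.87e-05) from day 1 to day 7, whereas its difference of 0.13 between day 1 and sham had an adjusted p of 0.296. AZIN1, an inhibitor of the antizyme that destroys ornithine decarboxylase, fell by 1.36 from sham to day 1 and rose by 1.07 from day 1 to day 7, a rise that was 0.94 after normexp correction and short of the fold threshold. The inducible nitric oxide synthase NOS2, ornithine decarboxylase ODC1, ASS1 and the arginine transporter SLC7A2 had no named probe and were not analysed here.

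XDH was close to background in the sham group and rose at both times. Its brightest probe, A_04_P001058, had a log2 signal of 4.13, 3.58, 4.12 and 3.79 on sham arrays 1 to 4. The lowest, median and highest signals were 8.51, 8.56 and 8.58 on day 1 and 12.47, 12.58 and 12.67 on day 7. The gap was 4.38 between the highest sham and the lowest day 1 array and 3.88 between the highest day 1 and the lowest day 7 array. In scanner units the probe read 9.61 to 20.3 in the sham group, 217 to 251 on day 1 and 8379 to 11800 on day 7.

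Modelled with all genes, XDH averaged 3.89 ± 0.28 (SD, n = 3) in the sham group, 8.55 ± 0.02 (n = 2) on day 1 and 12.57 ± 0.14 (n = 2) on day 7. The difference between day 7 and sham was 8.69 (SE 0.18), or 412-fold, which ranked 9 from the top. Day 1 exceeded sham by 4.66 (SE 0.18), or 25.4-fold, with an adjusted p of 5.17e-06 and a rank of 227. Day 7 exceeded day 1 by 4.02 (SE 0.20), or 16.2-fold, with an adjusted p of 2.88e-05. Within the 3 scans, which repeat the same samples, the difference was 4.04, 4.02 and 4.00. The sham signal was near background, and the size of the first step depended on the background method. After normexp correction, day 1 exceeded sham by 2.14 (adjusted p 1.95e-06) and the step from day 1 to day 7 was 3.49.

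Of the 6 XDH probes, 5 moved alike and 1 did not. Of the 5, the 4 that were well above background on at least 3 sham arrays exceeded sham by 4.66 to 5.02 on day 1, and A_04_P001056, which was so on sham array 3 only, had a fitted difference of 5.71 that rests on sham signals mostly at background. The 5 rose by 3.98 to 4.05 from day 1 to day 7, and their r over the 7 samples was 0.993 to 1.00. Each of these 5 was a DEG in both comparisons, where 25.2% and 21.3% of probes were higher. On the sham arrays A_04_P001057, A_04_P001059 and A_04_P001060 were well above background on all but array 2, and A_04_P001058 on all 4.

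The probe A_04_P098457, which is listed under the same XDH transcript, had a log2 signal of 4.58, 4.90, 4.80 and 4.66 on the sham arrays and was well above background on each. On day 1 its lowest, median and highest signals were 4.59, 4.90 and 5.13, which overlapped the sham arrays, and on day 7 they were 7.87, 7.95 and 7.97. Its difference of 0.15 (SE 0.15) between day 1 and sham had an adjusted p of 0.390, while it rose by 3.05 from day 1 to day 7 (SE 0.17, adjusted p 3.95e-05). The difference for day 1 against sham was -0.021 without the second day 1 sample, 0.33 without the first and 0.85 with scaling to the 75th percentile. Its r with the other probes was as low as 0.839. The probe sequences were not analysed here, so it was not tested which part of the transcript each probe reads. With all 6 probes averaged, XDH still exceeded sham by 4.17 on day 1 (adjusted p 6.62e-06).

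Purine genes were likewise mixed. Of 28 listed genes 5 had a named probe. Apart from XDH, 1 of 4 rose and 1 fell in day 7 against sham (17.7% and 13.7% of all genes). In day 1 against sham 2 rose and 2 fell (28.8% and 21.9% of all genes). In day 7 against day 1, 1 rose and 1 fell (19.5% and 22.7% of all genes). The medians over these 4 were 0.38, -0.03 and -0.60, against 0.04, 0.26 and -0.16 over all genes. AOX1, aldehyde oxidase, is a molybdenum enzyme related to XDH, and it fell as XDH rose. Its arrays ranged from 13.63 to 14.07 in the sham group, from 12.04 to 12.20 on day 1 and from 10.74 to 10.88 on day 7. AOX1 fell by 1.74 (SE 0.15, adjusted p 9.04e-05) from sham to day 1 and by 1.31 (SE 0.16, adjusted p 7.19e-04) from day 1 to day 7. Its 3 probes were all DEGs in the first step. In the second step they ranged from -1.31 to -0.94, and only 1 was a DEG. HPRT1, which returns hypoxanthine to the nucleotide pool before XDH can act on it, rose by 2.06 on day 1 (SE 0.11, adjusted p 1.39e-05) and stood 1.80 above sham on day 7. Its 4 probes ranged from 0.99 to 1.80 in the latter difference and 3 of them were DEGs. SLC29A1, a nucleoside transporter, was 1.61 lower on day 1 than in the sham group and had a difference of 0.13 from sham on day 7. SLC29A1 was picked with these values in view, so they are given as a description. PNP and ADA had no named probe and were not analysed here.

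NCF1 took another course, with its peak on day 1. Its only probe, A_04_P002266, had a log2 signal of 6.04, 6.12, 7.07 and 7.02 on sham arrays 1 to 4. On day 1 the lowest, median and highest signals were 12.27, 12.29 and 12.31, and on day 7 they were 8.41, 8.47 and 8.53. The day 7 arrays lay between the other groups, 1.35 above the highest sham array and 3.74 below the lowest day 1 array. In scanner units the probe read 57.6 to 126 in the sham group, 2903 to 3372 on day 1 and 515 to 568 on day 7. It was well above background on all 16 arrays.

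In the model NCF1 averaged 6.40 ± 0.56 (SD, n = 3) in the sham group, 12.29 ± 0.01 (n = 2) on day 1 and 8.47 ± 0.05 (n = 2) on day 7. Day 1 exceeded sham by 5.89 (SE 0.31), or 59.3-fold, with an adjusted p of 1.23e-05 and a rank of 101 among 19328 genes. NCF1 then fell by 3.82 (SE 0.33), a 14.1-fold difference, from day 1 to day 7 with an adjusted p of 1.69e-04. Within the 3 scans, which repeat the same samples, the difference was -3.81, -3.81 and -3.85. On day 7 it stood 2.07 (SE 0.31), or 4.20-fold, above sham, which ranked 1350 from the top. Sham arrays 3 and 4 exceeded arrays 1 and 2 by 0.97, or 1.95-fold, and the SD over the 4 arrays (0.56) exceeded that of 86.9% of probes. Against sham arrays 1 and 2, NCF1 was higher by 6.21 on day 1 and by 2.39 on day 7, and against arrays 3 and 4 by 5.25 and by 1.43. After normexp correction day 1 stood 4.62 above sham and day 7 stood 1.27 above it.

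The membrane subunits CYBB and CYBA and the cytosolic subunit NCF4 of the phagocyte NADPH oxidase were higher in the grafts than in the sham group, but their courses differed. Of 23 genes of the oxidase and its regulators 6 had a named probe. Apart from NCF1, 5 of 5 were DEGs higher on day 7 than in the sham group (17.7% of all genes), with a median of 2.41, and 4 were higher and 1 lower on day 1 (28.8% and 21.9% of all genes), with a median of 4.20. From day 1 to day 7, 2 of these 5 rose and 3 fell (19.5% and 22.7% of all genes), with a median of -1.16. After normexp correction the fall of P4HB on day 1 (-0.53) was short of the fold threshold.

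CYBB, the catalytic membrane subunit that carries electrons to oxygen, rose in both steps. It had a log2 signal of 6.77, 6.64, 7.59 and 7.29 on the sham arrays, 9.71 to 9.78 on day 1 and 13.01 to 13.09 on day 7. It rose by 2.80 (SE 0.24, adjusted p 9.13e-05) from sham to day 1 and by 3.30 (SE 0.26, adjusted p 1.24e-04) from day 1 to day 7, a step in which NCF1 fell. CYBA, its membrane partner, was at 10.22 to 10.48 on the sham arrays, 14.45 to 14.52 on day 1 and 13.17 to 13.48 on day 7. CYBA rose by 4.20 (SE 0.13, adjusted p 2.99e-06) and then fell by 1.16 (SE 0.14, adjusted p 6.39e-04).

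NCF4, the cytosolic subunit that binds a membrane lipid, had the course of NCF1. Its signal was 9.79, 10.12, 11.15 and 10.94 on the sham arrays, 14.96 to 15.15 on day 1 and 12.40 to 12.48 on day 7. NCF4 rose by 4.74 (SE 0.35, adjusted p 4.93e-05) from sham to day 1 and fell by 2.63 (SE 0.39, adjusted p 0.00142) from day 1 to day 7. PRKCB, a kinase that can phosphorylate NCF1, rose by 4.88 on day 1 by its brightest probe (SE 0.14, adjusted p 2.28e-06). By this probe it then fell by 2.47 (SE 0.15, adjusted p 4.93e-05). The 6 PRKCB probes ranged from 1.80 to 4.88 in day 1 against sham, where all 6 were DEGs. From day 1 to day 7 they ranged from -2.47 to -0.59, and 3 of them were DEGs. P4HB, a disulfide isomerase that is widely expressed, was the gene that fell on day 1, by 1.75 (SE 0.14). It rose by 3.66 from day 1 to day 7 (SE 0.15). P4HB was picked with these values in view, so they are given as a description. RAC2 and NOX4 had no named probe and were not analysed here.

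**Figure D3:**
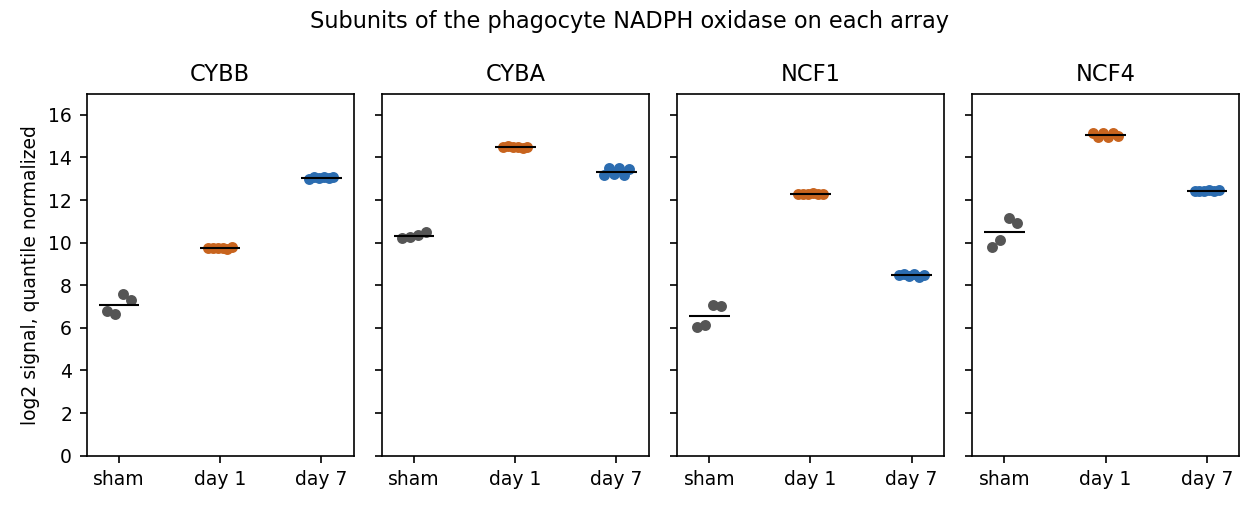
Normalized log2 signal (y axis) of 4 subunits of the phagocyte NADPH oxidase on each array of the 3 groups (x axis), with a bar at the mean over the arrays of a group. NCF1, NCF4 and CYBA were highest on day 1 and CYBB was highest on day 7. Levels of different genes are not comparable on this axis.

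Antioxidant genes, which remove oxidants, were mixed. Of 28 listed genes 7 had a named probe. In day 7 against sham 2 of 7 rose and 3 fell, where 17.7% and 13.7% of all genes did, with a median of 0.20 (all genes 0.04). In day 1 against sham 3 rose and 1 fell, where 28.8% and 21.9% of all genes did, and the median of 0.25 was close to the 0.26 of all genes. In day 7 against day 1, 2 fell (22.7% of all genes) and the other 5 were no DEGs (median -0.35, all genes -0.16). GPX3, the secreted glutathione peroxidase, rose by 1.93 on day 1 by its brightest probe (SE 0.27, adjusted p 8.61e-04). It then fell by 4.38 (SE 0.30, adjusted p 7.11e-05) to 2.45 below sham. Its 5 probes ranged from 0.79 to 1.93 in day 1 against sham, and only 2 of them were DEGs there. From day 1 to day 7 they ranged from -4.38 to -3.31. NFE2L2, a transcription factor of antioxidant genes, was 2.83-fold above sham on day 1 (adjusted p 5.07e-04) and 2.75-fold above it on day 7. With scaling to the 75th percentile its difference from sham was 1.62 on the log2 scale on day 1 and 2.54 on day 7, where quantile normalization gave 1.46 on day 7. SOD3, the extracellular superoxide dismutase, was well above background on the 4 sham arrays and on no graft array. This put SOD3 at least 1.72-fold lower on day 1 (fitted adjusted p 0.00196) and at least 1.67-fold lower on day 7. For such a probe the dim group was set on each array to the higher of its own signal and the lowest signal well above background. The fall of SOD3 depended on the processing, since with scaling to the 75th percentile it was -0.90 on day 1, and after normexp correction -0.22 on day 1 and -0.26 on day 7, none of which made a DEG and the latter pair smaller than the bounds.

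**Figure D4:**
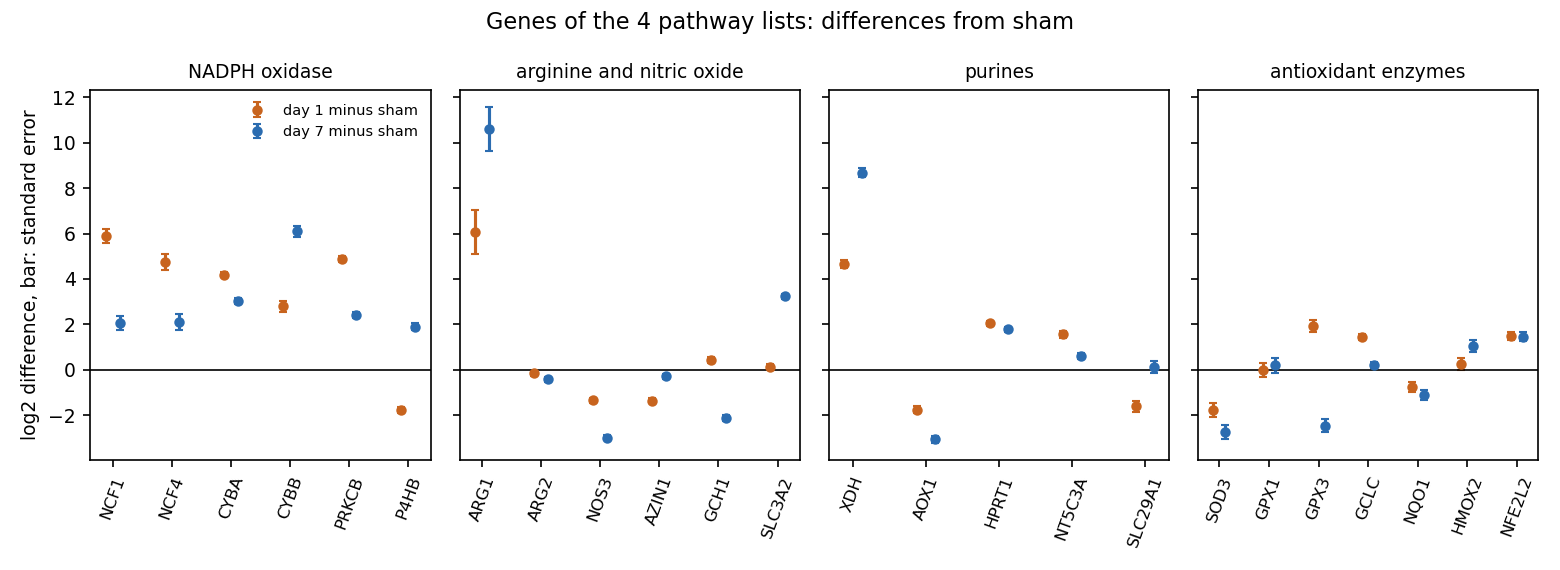
Difference from sham on the log2 scale (y axis) for every tested gene of the 4 pathway lists (x axis), on day 1 and on day 7. Points are differences of group means in the model and bars are standard errors. ARG1 at 10.58 and XDH at 8.69 were the highest of the plotted genes on day 7, while ARG2, NOS3 and AOX1 lay below 0 on both days.

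The 4 tested markers of myeloid cells were higher in the grafts than in the sham group, like the 3 genes. Of these markers, 3 were lower on day 7 than on day 1, like NCF1 and unlike ARG1 and XDH. Of 24 myeloid markers 4 had a named probe (S100A8, S100A9, CD14 and FPR1). All 4 were DEGs higher than sham on day 1 and on day 7 (28.8% and 17.7% of all genes). From day 1 to day 7, 3 of the 4 fell (22.7% of all genes), with a median of -2.55 (all genes -0.16). CD14 was the exception, with a difference of -0.89 (SE 0.39, adjusted p 0.0846). With scaling to the 75th percentile the CD14 difference was 0.013. Their summed signal, on the linear scale, was 10279 to 28399 intensity units over the sham arrays, 791757 to 826873 on day 1 and 170362 to 192932 on day 7. S100A8, a calcium-binding protein abundant in neutrophils and monocytes, was 5.73 above sham on day 1 (SE 0.46, adjusted p 6.92e-05) and fell by 2.24 from day 1 to day 7 (SE 0.51, adjusted p 0.00884). S100A9, its partner, was 5.76 above sham on day 1 (SE 0.44, adjusted p 5.32e-05) and fell by 2.85 (SE 0.48, adjusted p 0.00247). NCF1, S100A8 and S100A9 were thus highest on day 1, whereas ARG1, XDH and CYBB were highest on day 7. The macrophage markers CD68, CD163 and MRC1 had no named probe and were not analysed here. ALB, the only tested liver marker, was at 3.98 to 5.30 on the sham arrays, 3.55 to 3.89 on day 1 and 3.11 to 3.78 on day 7, and it was no DEG in any comparison. With scaling to the 75th percentile ALB was a DEG on day 7, at -1.38 against sham and -1.46 against day 1.

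The split of the sham arrays seen in ARG1 was also present in marker genes. S100A8 was 1.51 higher and S100A9 1.42 higher on sham arrays 3 and 4 than on arrays 1 and 2. The fat cell markers LPL, a lipase, and ADIPOQ, adiponectin, were higher on arrays 3 and 4 by 6.82 and by 1.46. LPL read 10.03, 10.13, 16.92 and 16.88 on sham arrays 1 to 4. All 5 smooth muscle markers were lower on arrays 3 and 4, from 0.36 for CALD1 and 0.57 for ACTA2 to 1.03 for MYH11, a myosin heavy chain, and 2.37 for DES, desmin. ALB was 1.11 higher there. The third fat marker with a named probe, LEP, differed by 0.09 between the pairs, and XDH, by its brightest probe, by 0.10. The part of the fat, myeloid, smooth muscle and liver markers in the ARG1 and NCF1 values was not tested. Of the 5 smooth muscle markers tested, 4 were DEGs lower than sham on day 1 and 4 on day 7 (21.9% and 13.7% of all genes). ARG1 and XDH were above sham at both times. With scaling to the 75th percentile CALD1, an actin-binding protein, was 0.65 below sham on day 7 and no longer a DEG. From day 1 to day 7, when ARG1 and XDH rose further, ACTA2 rose and 2 of the 5 fell (19.5% and 22.7% of all genes). The arrays of ACTA2 ranged from 13.00 to 13.10 on day 1 and from 17.51 to 17.89 on day 7. The part of the smooth muscle markers in the differences was not tested either.

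**Figure D5:**
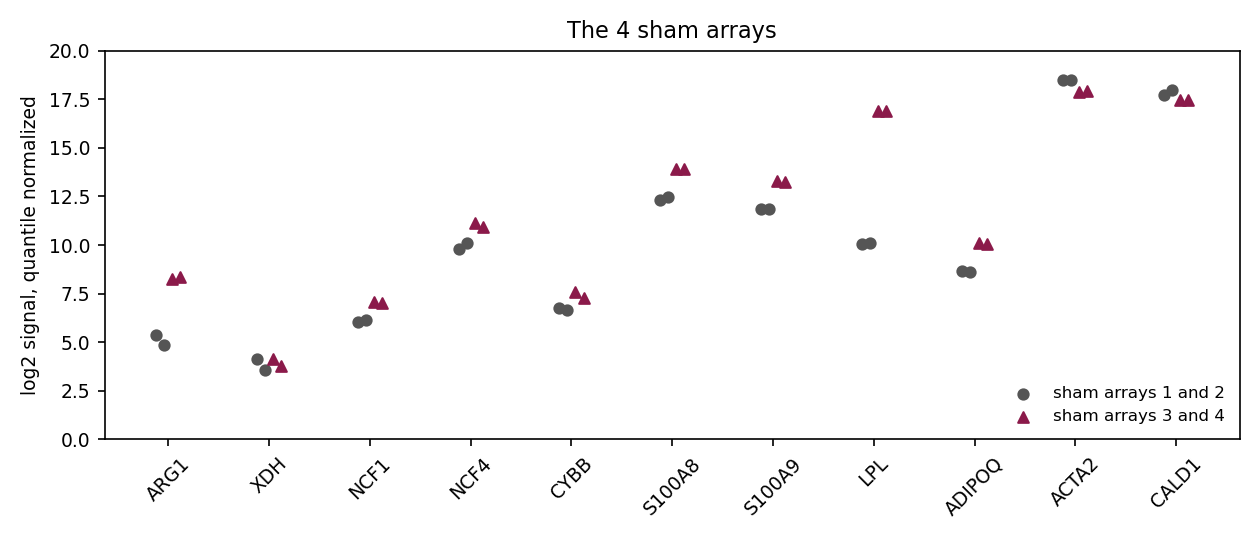
Normalized log2 signal (y axis) of ARG1, XDH, NCF1, oxidase subunits and cell type markers (x axis) on the 4 sham arrays, with arrays 1 and 2 as circles and arrays 3 and 4 as triangles. ARG1 and LPL were higher on arrays 3 and 4 by 3.19 and 6.82, while the XDH arrays lay close together.

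Across the 7 samples, ARG1 and XDH had a Pearson r of 0.98, ARG1 and NCF1 of 0.53 and XDH and NCF1 of 0.48. These values describe 3 groups of samples that share scans and controls. Of the 1972 other named genes, 94 had an r above 0.95 with ARG1, 104 with XDH and 141 with NCF1. The 4 genes most like ARG1 were ADORA3, an adenosine receptor (r 0.996), CALHM6, a channel subunit, VCP, an ATPase, and RLA-DMB, a class II antigen loading gene (r 0.995). RLA-DMB had group means of 10.98 in the sham group, 14.45 on day 1 and 17.68 on day 7. The 5 most like XDH were the chemokine receptor CCR1 (r 0.999), the unnamed loci LOC100101600 and LOC100344030, the survival factor MCL1 and the metal reductase STEAP2 (r 0.996). CCR1 had group means of 6.92, 8.11 and 9.29 in the same order. The 5 most like NCF1 were the matrix metalloproteinase MMP9 (r 0.999), the chloride channel protein CLIC1, AFG2B, FNDC3A and ZRANB3 (r 0.997). MMP9, which neutrophils store in granules, went from 8.16 in the sham group to 15.76 on day 1 and 10.71 on day 7. With 7 samples in 3 groups, any gene whose group means lie in the right proportions reaches such an r.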

How the data were processed

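Signals were from Agilent rabbit one-colour arrays (16 arrays, 45220 spots each). The authors deposited the scanner's background-subtracted signal intensity per spot, written by Agilent Feature Extraction (version 11.0.1.1 per the file headers, 9.1 per the submitters' notes), and a table of normalized log2 values of 33670 probes, which the authors had quantile-normalized in GeneSpring. That table was uncentred (column medians 8.49 to 8.51) and correlated with the log2 scanner signals at r of at least 0.999.

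Control spots were removed and spots called non-uniform or outlying were set to missing (1.46% of spots on at least 1 array). Log2 signals were quantile-normalized and spots of a probe averaged. Each gene was represented by the kept probe with the highest mean. Gene names came from RefSeq accessions of the assembly mOryCun1.1 (3368 probes) and from gene identifiers in the study's supplement (2816 further probes). Since the array annotation refers to another build, no coordinates or sequences are given.

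Day 1 arrays 1, 3 and 5 and arrays 2, 4 and 6 formed a sample each, and day 7 likewise. Arrays within these samples differed with an SD of 0.06 to 0.11, below the 0.19 to 0.21 expected from spots of the same probe. Arrays of different samples of a graft group exceeded this limit only slightly. Their SD was 0.209 to 0.218 on day 1 (0.192 to 0.203 expected) and 0.207 to 0.213 on day 7 (0.193 to 0.202 expected). Sham arrays 3 and 4 were at that limit (0.215 against 0.217). The 7 samples were fitted in R 4.3.3 with limma 3.58.1 (lmFit, eBayes, 3 groups, two-sided p-values, Benjamini-Hochberg over all genes, or over all probes for single probes), with the package data.table (1.17.8). Figures used Python 3.11.15, pandas 2.3.3 and matplotlib 3.10.9. On simulated data of 19120 genes, day 1 against sham recovered 84 of 100 genes changed by 2 and 95 of 100 changed by 4 (log2). The simulation changed few genes and drew independent noise of equal SD in all groups, unlike the data, so these rates may not hold here.

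The 3 genes, the lists and the tests were chosen with earlier results of these data known. Named genes are the 3 genes, up to 4 DEGs of each pathway list with the largest difference between day 7 and sham, partners of the 3 genes by role, the 2 brightest genes of a marker list, and the 5 genes most correlated with each of the 3. Results of 2 genes under this rule are not reported here. AZIN1, SLC29A1, P4HB, LEP, CD14, FPR1, MYH11 and DES fell outside this rule and were picked with their values in view. The red blood cell list had no named probe. Of 12 lymphocyte markers 4 were tested, of which 3 rose on day 1 against sham and 2 on day 7 (28.8% and 17.7% of all genes). Alternatives were scaling to the 75th percentile, normexp (offset 50), the authors' values, 2 other filters, averaged probes, other sample counts, a replicate or scan block, models of the compared groups and samples left out. Leaving out sham arrays 1 and 2, and keeping sham arrays 3 and 4 separate, were added after seeing the data.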

Additional observations from a re-analysis of the deposited data

Results flagged for a closer look

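On 2 of the 6 XDH probes, sham array 2 stood apart below the other 3 sham arrays. For A_04_P001059 the gap took 0.907 of the range of the 4 arrays, with 3.26 on array 2 and 3.94 to 4.01 on the others. For A_04_P001060 the gap took 0.851 of the range, with 3.17 on array 2 and 3.98 to 4.12 on the others. Neither probe was well above background on array 2. For a single probe, a gap beyond the cutoff of this screen arises by chance in about 1 in 20 groups of 4 independent arrays. Sham arrays 3 and 4 were merged as repeats, so this rate does not hold here. All 11 probes were screened, so a gap somewhere among them is more likely than on a single probe.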

How the results depend on the processing

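The 3 genes kept their direction in all 3 comparisons under every alternative. Normexp correction gave 3352 DEGs in day 7 against sham, 5469 in day 1 against sham and 3896 in day 7 against day 1, where quantile-normalized processed signals gave 6058, 9800 and 8126. It put the difference between day 7 and sham at 8.88 for ARG1, 5.63 for XDH and 1.27 for NCF1. With the probes of a gene averaged, this difference was 8.03 for XDH. Without sham arrays 1 and 2 it was 8.46 for ARG1 and 1.43 for NCF1. With each sample left out in turn, ARG1 rose by 4.47 to 4.53 from day 1 to day 7, with an adjusted p above 0.05 without either day 7 sample (0.0529 and 0.0506), and the day 1 difference of the XDH probe A_04_P098457 ranged from -0.021 to 0.33. Scaling to the 75th percentile moved the median of all genes by 0.41 in day 1 against sham, by -0.42 in day 7 against day 1 and by -0.11 in the remaining comparison, and normexp moved it by -0.17, 0.10 and -0.03 in that order. No list gene that was a DEG changed direction under either. The causes were not tested. Replicate numbers did not pair the arrays, since same-numbered arrays correlated at -0.01 to 0.05 in their deviations (14 pairs), and the replicate block, fitted to 16 separate arrays, gave 6352 DEGs for day 7 and 10072 for day 1 against sham, and 8503 between the days. Signal over background limits XDH most, which was near background in the sham group.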
